A study of Mus musculus with 56 samples.

Results

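RNAPII-pS2, the elongating form of RNA polymerase II (RNAPII) with phosphate on serine 2 of its tail repeats, was mapped by ChIP-seq in wild-type C57BL/6 mouse bone marrow-derived macrophages (BMDMs) that had received IL-4 for 24 hr and then LPS for 1 hr or no LPS. The comparison used every RNAPII-pS2 peak list that the sample labels assign to 24hIL4_ctrl (replicates 1 and 2) and to 24hIL4_1hLPS (replicates 1 and 2). These are 4 of the 56 samples that the labels describe, and they hold 111298 peaks in all. Cells came from mice aged 8 to 12 weeks and were differentiated for 6 days with L929 supernatant as the source of M-CSF. All 4 samples share the pretreatment with IL-4 (20 ng/ml), so the contrast is LPS (100 ng/ml) against no LPS on an alternatively polarized background, and 2 replicates each without IL-4 (ctrl_ctrl and ctrl_1hLPS) were used for the spread and for the difference between responses. BMDMs are a culture of primary cells and hold whatever other marrow cells survived. The study describes the replicates as biological, but the sources used here do not tie them to animals, so p-values measure the spread between these samples.

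LPS is sensed by TLR4 and sets off NF-κB, which carries p65 (Rela) to the DNA, and a type I interferon loop through IRF3 and STAT factors. IL-4 acts through STAT6 and drives the alternative program of macrophages, with Arg1, Retnla, and Chi3l3 as textbook markers. RNAPII-pS5 marks the initiating enzyme near start sites, and RNAPII-pS2 accumulates over gene bodies and past their ends, so a gain of RNAPII-pS2 over a gene is read as more elongating enzyme on it. A peak score is read here and in the figures as a MACS2 significance on a −log10 scale, from its range, since the headers do not name it. On that reading it measures how clearly a peak stands above its surroundings and not how much polymerase is bound.

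The 24hIL4_ctrl replicates held 25838 and 27488 RNAPII-pS2 peaks, and the 24hIL4_1hLPS replicates held 29235 and 28737 peaks. Because no reads were analysed, sequencing depth is not known here, and peak number is the nearest measure of it. The names of the peaks inside each list carry the treatment that the label gives. Chemokine genes without a peak in either unstimulated replicate, among them Cxcl2, had peaks in both LPS replicates, and p65 peaks numbered 11026 and 10253 without LPS and 36738 and 38955 with LPS. Erythroid genes had no RNAPII-pS2 peak in any of the 4 samples (7 of 7 markers), and 7 of 8 fibroblast, 6 of 7 mast cell, 6 of 10 T and NK cell, 5 of 7 B cell, 4 of 10 granulocyte, 4 of 7 dendritic cell, and 2 of 5 endothelial markers had none. Of 9 macrophage markers 8 had a peak, Spi1 being the exception. The summed score of the macrophage markers was 289 and 324 without LPS and 282 and 314 with LPS. That of the dendritic cell markers was 76.5 and 72.2 without and 118 and 146 with LPS, that of the B cell markers was 51.0 and 68.2 against 111 and 83.4, that of the fibroblast marker with a peak was 37.6 and 36.3 against 58.0 and 55.7, and that of the granulocyte markers was 17.1 and 36.2 against 42.7 and 32.0, with Camp, Ngp, and S100a9 called higher and S100a8 lower. The part of such cells in the results was not tested, and fewer cells of a type and less signal per cell cannot be told apart in bulk samples.

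With LPS, more RNAPII-pS2 peaks of IL-4-pretreated BMDMs lay in introns and fewer at gene ends. Intronic peaks numbered 9967 and 10593 without LPS and 12088 and 11967 with LPS, a ratio of means of 1.17 against 1.09 for all peaks, and their share went from 38.5% to 41.5%. Intergenic peaks numbered 10027 and 10544 without LPS and 11434 and 11213 with LPS, a ratio of 1.10, and their share was 38.6% without and 39.0% with LPS. Peaks at transcription termination sites (TTS) went the other way, from 1136 and 1261 to 1016 and 1037, or from 4.50% to 3.54% of all peaks. Promoter-TSS peaks made up 13.3% of the peaks in each unstimulated replicate and 11.6% and 11.4% with LPS. Peaks over 2 kb wide numbered 160 and 208 without LPS and 259 and 244 with LPS. In these classes the groups did not overlap, and an exact two-sided permutation test gave p = 0.33 for each, the smallest p that 2 against 2 samples allow. The median score was 7.55 and 7.93 without LPS and 9.11 and 9.21 with LPS, without overlap and with the same exact permutation p of 0.33.

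Peak scores were summed by gene, over the peaks that the lists name after it and do not call intergenic, and a missing peak was set to the lowest score in the lists, 1.39. limma was fitted to the log2 values, centred on genes that had peaks in all samples of the fit, and called a gene at a Benjamini-Hochberg adjusted p of at most 0.1. Of 11640 genes tested, 28% were called: 1604 genes (13.8%) rose with LPS and 1656 genes (14.2%) fell. The median change of all genes was −0.12 on the log2 scale. Without the centring it was 0.17, the sample medians lay 0.29 higher with LPS, and the calls shifted to 2205 genes higher and 1223 lower, so every direction here is relative to the middle of the shared genes. Of the genes that rose, 809 had a peak in all 4 samples and 600 had none in either unstimulated replicate. Of the genes that fell, 678 had a peak in all 4 samples and 729 had none in either LPS replicate. The groups did not overlap at any of the 1604 genes that rose and at 1626 of those that fell. Over all genes tested, 34.9% lay higher and 20.7% lower without overlap. Lack of overlap at a called gene therefore comes with the call and adds nothing to it. For genes without a peak in a whole group, the scores are given and no fold change, since that would depend on the value set for a missing peak. Leaving out 24hIL4_1hLPS replicate 1 or replicate 2 lowered the genes that rose to 934 and 935, and leaving out a 24hIL4_ctrl replicate left 1312 and 1309.

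Chemokine genes had the highest share of genes that rose among 12 lists of known function. Of 17 listed genes 14 were tested, 10 rose (71.4% against 13.8% of all genes) and 1 fell, with a median log2 change of 1.94 against −0.12 over all genes. The median was 1.41 with the value for a missing peak set 4 times as high. Cxcl2, a ligand that attracts neutrophils, had no peak in either unstimulated replicate and summed scores of 58.9 and 59.0 with LPS (limma adjusted p = 0.00138). Cxcl3 (18.1 and 29.3 with LPS, adjusted p = 0.00474 from limma) and Cxcl1 (17.0 and 17.1, adjusted p = 0.0197), which act on the same receptor, also had no peak before LPS. The 3 genes went from no detectable peak to a peak in each LPS replicate, with the strongest score at Cxcl2. The promoters of Cxcl2, Cxcl1, and Ccrl2 are shown because they hold a κB motif (GGANTTTCC, either strand), the kind of site that p65 binds, in the 250 bases before the start site. The sequences are from RefSeq (GRCm38.p6), 5′ to 3′ on the strand of the gene, with the motif in capitals, and lie at chr5:90903649-90903948 (plus strand), chr5:90890995-90891294 (plus strand), and chr9:111057469-111057768 (minus strand).
Cxcl2 promoter: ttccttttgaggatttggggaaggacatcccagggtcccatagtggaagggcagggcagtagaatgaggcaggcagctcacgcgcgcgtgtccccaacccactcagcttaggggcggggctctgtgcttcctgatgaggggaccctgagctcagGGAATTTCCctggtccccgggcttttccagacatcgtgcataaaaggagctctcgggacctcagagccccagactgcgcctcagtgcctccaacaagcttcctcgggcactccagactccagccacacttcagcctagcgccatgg
Cxcl1 promoter: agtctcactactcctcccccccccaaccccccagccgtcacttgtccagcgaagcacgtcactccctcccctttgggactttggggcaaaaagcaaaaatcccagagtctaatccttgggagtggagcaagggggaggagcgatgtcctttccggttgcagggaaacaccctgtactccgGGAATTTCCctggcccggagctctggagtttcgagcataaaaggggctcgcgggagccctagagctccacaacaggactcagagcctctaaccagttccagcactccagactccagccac
Ccrl2 promoter: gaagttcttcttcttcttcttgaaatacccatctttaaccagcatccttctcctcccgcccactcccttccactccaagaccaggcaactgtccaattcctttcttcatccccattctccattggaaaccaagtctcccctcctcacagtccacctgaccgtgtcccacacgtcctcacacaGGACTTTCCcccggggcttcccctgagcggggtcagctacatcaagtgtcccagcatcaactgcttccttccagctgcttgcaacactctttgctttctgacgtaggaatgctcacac
The motif begins 96 bases before the start site of Cxcl2, 70 bases before that of Cxcl1, and 68 bases before that of Ccrl2. It was found in 5 of the 10 chemokine promoters in the RefSeq table (Ccrl2, Cxcl1, Cxcl10, Cxcl2, and Cxcl3) and in 333 of all 27025 promoters of this length, or 1.23%. Among genes that rose 2.47% of promoters held it, among genes that fell 0.848%, and among genes not called 1.31%. A match of letters is a description and not a bound site.

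The CC chemokines mostly started from a peak and gained. Ccl3, a macrophage inflammatory protein, scored 15.0 and 18.8 without LPS and 77.4 and 82.9 with LPS, and rose by 1.96 on the log2 scale (SE 0.16, adjusted p = 0.00173 from limma). Ccl2, which recruits monocytes, scored 16.8 and 12.8 without LPS and 75.2 and 76.4 with LPS, and rose by 2.08 (SE 0.22, adjusted p = 0.00324). Both LPS replicates stood far above both unstimulated ones at Ccl3 and Ccl2, and the LPS replicates lay close together. Ccl7 scored 15.3 and 17.3 without and 66.8 and 77.2 with LPS, Ccl4 scored 12.5 and 27.9 without and 62.0 and 63.0 with LPS, and the interferon-linked Cxcl10 scored 15.1 and 9.61 without and 50.5 and 60.2 with LPS. These 3 genes rose by 1.86, 1.45, and 1.91 on the log2 scale. Ccl5, which attracts T cells, had no peak before LPS and scored 17.3 and 17.8 with it (adjusted p = 0.0051 from limma). Ccrl2, a chemerin-binding receptor related to chemokine receptors, had none before LPS and scored 16.8 and 14.3 with it, but over the whole gene span its change did not pass the threshold (adjusted p = 0.542 from limma). Ccl6 was the only chemokine called lower with LPS (88.2 and 109 without, 81.4 and 74.9 with LPS; log2 change −0.61, SE 0.16), and it was not called without centring or without 24hIL4_ctrl replicate 2 or either 24hIL4_1hLPS replicate (adjusted p up to 0.147). Ccl9 scored 28.3 and 31.7 without and 20.9 and 25.9 with LPS and was not called (log2 change −0.65, adjusted p = 0.101 from limma). The other 10 calls held with any of the 8 samples of the fit left out. At Ccl2 and Cxcl2, adding the intergenic peaks that the lists name after these genes turned the change to −0.16 and −0.06, and the regions upstream of Cxcl2 are described with the distal regions.

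**Figure D1:**
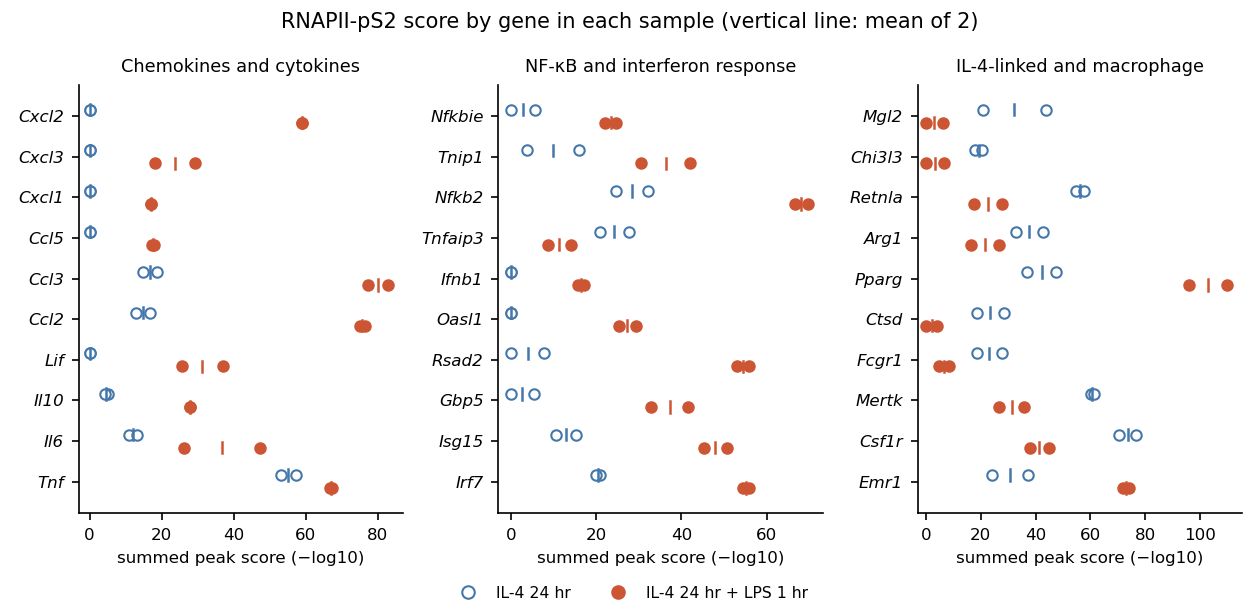
RNAPII-pS2 score of 30 genes (horizontal axis, summed −log10 peak score, 0 where no peak is listed) in the 2 samples with IL-4 alone (open circles) and the 2 with IL-4 and LPS (filled circles), with the mean of each pair as a short line. Cxcl2 goes from 0 in both to 58.9 and 59.0, while Retnla falls from 54.9 and 57.8 to 17.8 and 27.7.

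NF-κB genes and their inhibitors rose in 8 of 15 tested cases (53.3%) and fell in 1 (6.67%), against 13.8% and 14.2% of all genes, with a median log2 change of 0.98. Nfkb2, the p100 precursor, scored 24.7 and 32.1 without LPS and 66.5 and 69.6 with LPS and rose by 0.98 on the log2 scale (SE 0.17, adjusted p = 0.00862 from limma). Nfkbie, an IκB inhibitor, had a peak in 1 unstimulated replicate (5.75) and scored 22.2 and 24.5 with LPS, a rise of 2.76 (SE 0.69, adjusted p = 0.0297). Nfkb1, Nfkbib, Nfkbiz, Bcl3, Tnip1, and Tnip3 rose as well, by 0.83 to 1.90, of which Nfkbib turned to −1.06 when peaks were assigned by the annotated transcript. In all 8 genes both LPS replicates lay above both unstimulated ones, as in all 1604 genes that rose. Over the gene span Nfkb2 and Nfkbiz were not called (adjusted p = 0.755 and 0.157). Of the 9 calls, those of Nfkb2 and Tnip3 held with any sample left out, and the other 7 were lost without 1 or more of the 4 samples compared, at adjusted p-values of up to 0.121 to 0.28 from limma. Tnfaip3, which encodes the deubiquitinase A20 and restrains NF-κB, scored 20.8 and 27.8 without LPS and 8.72 and 14.0 with LPS, a log2 change of −1.41 (adjusted p = 0.0338). Its direction turned to 0.73 with intergenic peaks, to 0.20 with the highest peak in place of the sum, and to 0.01 with the upper 50% of peaks, and over the span it was −1.25 (adjusted p = 0.0629). Nfkbia, the IκBα inhibitor, was not called (112 and 125 without, 122 and 138 with LPS, log2 change −0.16, adjusted p = 0.366). Counting only peaks that overlap the Nfkbia gene itself, its score went from 2.30 and 9.66 to 34.6 and 36.3 and rose by 2.61 (adjusted p = 0.0185 from limma). The merged region that runs from the gene past its 3′ end (chr12:55486413-55491847) scored 31.9 and 31.7 without LPS and 34.6 and 36.3 with LPS and was not called (adjusted p = 0.879). Rela, the p65 gene, was not called (65.2 and 71.2 without, 83.9 and 87.0 with LPS, log2 change 0.04).

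Cytokine genes split. Of 19 tested, 6 rose (31.6%) and 2 fell (10.5%), against 13.8% and 14.2% of all genes, and without centring 9 rose and 2 fell. The median log2 change was 0.89, or 0.27 with the higher value for a missing peak. Lif, a member of the IL-6 family, had no peak before LPS and scored 25.7 and 37.0 with LPS (adjusted p = 0.00353 from limma). Il10, the anti-inflammatory cytokine, scored 5.03 and 4.38 without and 28.0 in both replicates with LPS, a rise of 2.29 (SE 0.31, adjusted p = 0.00504). The rise at Il10 is that of peaks named after it outside the gene, since over the gene span its log2 change was −0.10 (adjusted p = 0.883) and its RNAPII-pS5 peaks, 8.75 and 10.5 without LPS, were not listed with LPS. Il6 scored 11 and 13.2 without LPS and 47.4 and 26.4 with LPS and rose by 1.26 (SE 0.31, adjusted p = 0.028). Tnfsf9 (21.3 and 23.1 with LPS) and Il12a (18.97 and 4.75 with LPS, no peak without) rose with peaks in both LPS replicates, and Csf1 rose by 0.97. Over the gene span Il6 was not called (adjusted p = 0.427). The calls of Csf1, Il12a, and Il6 were lost without 1 or more of the 4 samples compared (adjusted p up to 0.131 to 0.137 from limma), and Csf1 turned to −0.43 with intergenic peaks.

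Tnf itself was loaded before LPS. Its summed score was 53.1 and 57.3 without LPS and 66.7 and 67.4 with LPS, with no overlap, and its centred log2 change was −0.01 (SE 0.14, adjusted p = 0.978 from limma). Without centring the change was 0.28. The region that covers the gene and its 3′ end (chr17:35197841-35202187, mm10) scored 47.7 and 46.1 without LPS and 66.7 and 67.4 with LPS and was called higher by 0.33 (SE 0.12, adjusted p = 0.0879). Leaving out 24hIL4_ctrl replicate 1, 24hIL4_1hLPS replicate 1, or either ctrl_1hLPS replicate turned the value of the gene to between 0.01 and 0.04, and none was called.

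Il1b and Il12b fell by the names in the lists, but the peaks around each gene went in more than a single direction. Il1b, which encodes the pro-form of IL-1β, had peaks of 51.7 and 59.9 named after it without LPS and none with LPS (adjusted p = 0.00138 from limma). That signal is a single region 2397 bases upstream of the start site (chr2:129373211-129373780, mm10), inside an intron of a noncoding transcript. The gene lies at chr2:129364569-129371164 on the minus strand, and the peaks over it are named in the lists after its neighbour Gm14047. None of them was listed in either unstimulated replicate, and with LPS they scored 26.5 and 22.9 at the 3′ end (chr2:129363098-129366499) and 10.19 and 10.01 over the body (chr2:129366619-129370599). Over the gene span the score of Il1b therefore went from no peak to 40.6 and 32.9 with LPS (adjusted p = 0.00238 from limma). A region 9735 bases upstream rose too, from 3.37 and 4.25 to 14.5 and 9.45, by 1.44 on the log2 scale (adjusted p = 0.0133), and a region beyond the 3′ end fell from 27.6 and 34.6 to no peak. In cells without IL-4 the far upstream region scored 11.7 and 9.79 without LPS and 36.4 and 25.3 with LPS. Its difference between responses was not called (adjusted p = 0.893 from limma). The study reported lower enhancer RNA after IL-4, with and without LPS, at an Il1b enhancer at about this distance. All Il1b regions were looked up after the value of the gene was seen.

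Il12b, the p40 subunit shared by IL-12 and IL-23, had peaks named after it outside intergenic DNA of 10.3 and 21.2 without LPS and none with LPS (adjusted p = 0.00808 from limma). They lie at the end of the gene, where the merged region (chr11:44414533-44415969) scored 10.3 and 21.2 without and 3.76 and 5.14 with LPS (log2 change −1.94, adjusted p = 0.00802), and over the gene span the fall was called as well (adjusted p = 0.00788). Of all intergenic regions, the largest fitted gain was upstream of this gene. At chr11:44389868-44390706 (mm10), 9782 bases before the start site, no peak was listed in either unstimulated replicate and the LPS replicates scored 106 and 116 (adjusted p = 0.000896 from limma). A second region 17660 bases upstream (chr11:44382123-44382640) had no peak without LPS and scored 26.5 and 33.9 with LPS. Both p65 and RNAPII-pS5 peaks covered the first of these regions in both LPS replicates and in neither replicate without LPS. With intergenic peaks included, the log2 change of Il12b turned to 1.82. The central 300 bases of the region are printed because peaks were listed here with LPS alone (RefSeq GRCm38.p6, chr11:44390138-44390437, plus strand), all in lower case since neither the κB motif nor the interferon motif (GAAA, any 2 bases, GAAA) was found in them, which says only that these letters are absent from this window.
Il12b upstream region: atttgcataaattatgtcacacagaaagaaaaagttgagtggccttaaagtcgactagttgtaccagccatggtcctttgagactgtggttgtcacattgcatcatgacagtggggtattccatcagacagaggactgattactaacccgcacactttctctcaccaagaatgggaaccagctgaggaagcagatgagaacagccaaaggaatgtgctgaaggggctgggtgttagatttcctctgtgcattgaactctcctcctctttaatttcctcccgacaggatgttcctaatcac

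**Figure D2:**
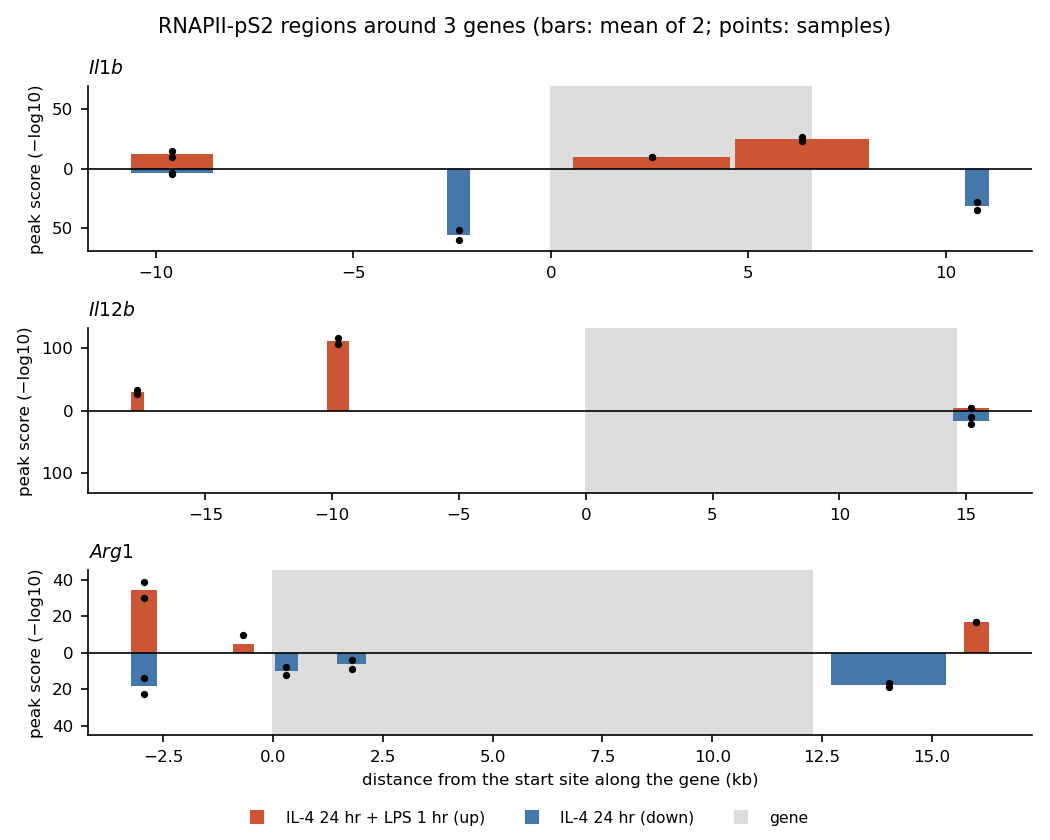
RNAPII-pS2 regions around Il1b, Il12b, and Arg1, by distance from the start site along the gene (kb), with the mean peak score (−log10) with LPS drawn upward and without LPS downward, single samples as points, and the gene in grey. Peaks over the Il1b body are listed with LPS alone while that 2397 bases upstream is listed without LPS alone, the largest Il12b region lies 9782 bases upstream and has peaks with LPS alone, and the regions within Arg1 have peaks without LPS alone.

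Interferon response genes rose in 14 of 22 tested cases (63.6%) and fell in none, against 13.8% and 14.2% of all genes, with a median log2 change of 1.39, or 1.31 with the higher value for a missing peak. Over the gene span 11 of the 22 were called higher and 2 lower. Ifnb1, the interferon that starts the loop, had no peak without LPS and scored 17.2 and 15.8 with LPS (adjusted p = 0.00426 from limma). Oasl1, an oligoadenylate synthetase-like protein, had none without LPS and scored 29.4 and 25.3 with it (adjusted p = 0.00344). Rsad2, the antiviral protein viperin, had a peak in 1 unstimulated replicate (7.79) and scored 53.1 and 55.8 with LPS, a rise of 3.76 (SE 0.65, adjusted p = 0.00866). Every one of these genes stood higher in both LPS replicates than in either unstimulated one, as did all 1604 genes that rose. Gbp5, a guanylate-binding protein, scored 5.33 in 1 unstimulated replicate and 33.0 and 41.5 with LPS, a rise of 3.47 (SE 0.54, adjusted p = 0.00639). Irf7, which amplifies interferon transcription, scored 20.9 and 19.9 without and 55.9 and 54.4 with LPS and rose by 1.14 (SE 0.17, adjusted p = 0.00607). Isg15, Ifit2, Ifit3, Gbp2, Stat2, Usp18, Ifi205, Isg20, and Mx1 rose too, by 0.80 to 3.35, of which Isg20 had no peak without LPS. Ifit3 was not called over the gene span (log2 change −0.15), and its direction also turned with the highest peak in place of the sum (−0.50). Isg20 and Mx1 were not called over their spans either (adjusted p = 0.235 and 0.399). Mx1 turned to −3.84 by the annotated transcript and Isg20 to −0.31 with the upper 50% of peaks. The calls of Ifit2, Ifit3, Isg20, Mx1, and Stat2 were lost without 1 or more of the 4 samples compared (adjusted p up to 0.1 to 0.18 from limma), and the other 9 held with any sample left out. The promoters of Rsad2 and Gbp5 are printed because each holds an interferon-stimulated response element (ISRE, the letters GAAA, any 2 bases, then GAAA, on either strand), and that of Gbp5 also holds the κB motif. They are RefSeq sequences (GRCm38.p6) at chr12:26456403-26456702 (minus strand) and chr3:142496684-142496983 (plus strand), on the strand of the gene, with both kinds of motif in capitals.
Rsad2 promoter: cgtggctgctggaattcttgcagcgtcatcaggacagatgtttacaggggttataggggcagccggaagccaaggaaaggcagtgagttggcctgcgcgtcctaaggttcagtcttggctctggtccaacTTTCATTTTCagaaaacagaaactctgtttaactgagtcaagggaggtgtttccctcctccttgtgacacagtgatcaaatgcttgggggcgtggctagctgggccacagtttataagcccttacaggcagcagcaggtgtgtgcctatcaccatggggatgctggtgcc
Gbp5 promoter: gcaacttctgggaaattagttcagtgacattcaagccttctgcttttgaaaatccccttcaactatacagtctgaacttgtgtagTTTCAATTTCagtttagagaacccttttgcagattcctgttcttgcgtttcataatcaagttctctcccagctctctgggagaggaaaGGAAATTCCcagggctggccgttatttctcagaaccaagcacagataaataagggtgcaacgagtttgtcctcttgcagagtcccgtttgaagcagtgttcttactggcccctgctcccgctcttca
The ISRE begins 120 bases before the start site of Rsad2 and 165 bases before that of Gbp5, where the κB motif begins at 77 bases. Of the 19 interferon response promoters in the RefSeq table, 9 held the ISRE letters, against 943 of all 27025 promoters (3.49%). They were found in 5.43% of the promoters of genes that rose, 1.77% of those that fell, and 2.98% of those not called.

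Genes for prostaglandin, nitric oxide, and metabolic functions rose in 5 of 14 tested cases (35.7%) and fell in 2 (14.3%), against 13.8% and 14.2% of all genes (median log2 change 0.60). Ptgs2, the inducible cyclooxygenase, had a peak of 3.46 in 1 unstimulated replicate and scored 21.0 and 28.1 with LPS, a rise of 3.18 (SE 0.57, adjusted p = 0.00981 from limma). Irg1, which makes itaconate, rose from 2.24 and no peak to 13.6 and 27.1, and Hif1a, a transcription factor of glycolytic genes, from 2.87 and 5.48 to 25.0 and 30.2. Both LPS replicates were higher at each of these genes, as at all 1604 genes that rose. Hif1a was not called over its span (adjusted p = 0.515). Hk2, a hexokinase, rose by 1.15 and Slc7a2, an arginine transporter, by 1.73. Pkm, the pyruvate kinase, fell by the names in the lists (42.4 and 43.5 to 12.4 and 11.4, log2 change −2.14), whereas over the span its change was 0.61 (adjusted p = 0.455). Slc7a11, the cystine transporter, fell by 0.87 (107 and 116 to 68.9 and 80.6, adjusted p = 0.0163). The calls of Hk2, Irg1, and Slc7a2 were lost without 1 or more of the 4 samples compared (adjusted p up to 0.121 to 0.19 from limma).

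Of the genes of feedback and mRNA decay, 7 of 22 rose (31.8%) and 1 fell (4.55%), against 13.8% and 14.2% of all genes (median log2 change 0.29), and without centring 8 rose and none fell. Socs3, a brake on cytokine signaling, scored 5.25 and 10.6 without LPS and 50.4 and 46.9 with LPS and rose by 2.42 (SE 0.31, adjusted p = 0.0041 from limma). Trib1, a pseudokinase, already scored 110 and 108 without LPS and reached 226 and 206, a rise of 0.70 (SE 0.10, adjusted p = 0.00558). Marcksl1, Pim1, Peli1, Gadd45a, and Dusp6 rose by 0.90 to 3.24, of which Pim1 had no peak without LPS. Gadd45a and Marcksl1 turned to −2.28 and −0.78 when peaks were assigned by the annotated transcript, and Pim1 turned to −0.23 with intergenic peaks. Over their spans Trib1 (log2 change 0.44), Dusp6, Pim1, and Gadd45a were not called (adjusted p = 0.15, 0.144, 0.465, and 0.676). Zfp36l1, an mRNA decay factor, was lower by 0.70 (117 and 94.8 to 65.2 and 96.1) with overlapping groups, and it turned to 0.13 with intergenic peaks. The calls of Dusp6, Peli1, and Zfp36l1 were lost without 1 or more samples (adjusted p up to 0.169 to 0.38 from limma). Of 24 immediate-early transcription factors 2 were higher (8.33%) and 4 lower (16.7%), which is near the 13.8% and 14.2% of all genes, with a median of −0.23. Without centring 5 were higher and 3 lower and the median was 0.06. Jun scored 49.7 and 53.3 without LPS and 28.8 and 23.3 with LPS and fell by 1.28 (SE 0.22, adjusted p = 0.00856). Klf6 fell by 1.59, Ier2 by 0.78, and Fos by 0.61, each without overlap between the groups, as at 1626 of the 1656 genes that fell. Klf6 turned to 0.47 with intergenic peaks. Fos was not called without centring (adjusted p = 0.358). Mafk (4.52 and 4.28 to 21.7 and 25.3) and Fosl2 (28.0 and 28.2 to 82.9 and 62.9) rose by 2.13 and 1.07. Over their spans Klf6, Fos, and Fosl2 were not called (adjusted p = 0.247, 0.352, and 0.107). The calls of Fos and Fosl2 were lost without 1 or more samples (adjusted p up to 0.231 and 0.14).

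Genes linked to IL-4 fell more often than they rose. Of 26 tested, 9 fell (34.6% against 14.2% of all genes) and 2 rose, with a median log2 change of −0.33. Among the 18 of them with a peak in all 4 samples the median was 0.11, so the median rests on genes that lost every peak in a replicate. Without centring 7 of the 26 fell, 3 rose, and the median was −0.04. Retnla, the secreted protein Fizz1, scored 54.9 and 57.8 without LPS and 17.8 and 27.7 with LPS and fell by 1.63 (SE 0.46, adjusted p = 0.0432 from limma). Chi3l3, the lectin Ym1, went from 18.0 and 20.5 to no peak in 1 LPS replicate and 6.63 in the other, a fall of 2.95 (SE 0.74, adjusted p = 0.0299). Mgl2, a galactose-type lectin, went from 20.9 and 43.8 to 6.28 and no peak, a fall of 3.65 (SE 0.77, adjusted p = 0.0166). All 3 genes were lower in both LPS replicates than in either unstimulated replicate, as were 1626 of the 1656 genes that fell. Each of the 3 also fell over its gene span. Retnla and Chi3l3 had no RNAPII-pS2 peak in any of the 4 samples without IL-4. Fn1, Ptgs1, Ccl24, Cdh1, and Tfec fell by 1.06 to 3.24, of which Ptgs1 had no peak with LPS. Cdh1 was not called over its span (adjusted p = 0.325 from limma), and Ccl24 not without centring (adjusted p = 0.175). RNAPII-pS5 at Ccl24 went the other way, from no peak to 7.08 and 11.5, and was called higher (adjusted p = 0.00874). The calls of Mgl2, Fn1, Tfec, and Pparg held with any sample left out, and the other 7 were lost without 1 or more samples, at adjusted p-values of up to 0.1 to 0.301 from limma, Retnla, Chi3l3, and Arg1 among them.

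Arg1, the arginase that marks alternative activation, scored 32.8 and 42.6 without LPS and 16.6 and 26.6 with LPS and fell by 1.12 (SE 0.37, adjusted p = 0.0712 from limma), a call that was lost without centring (adjusted p = 0.153). Over the gene itself (chr10:24915207-24927470, minus strand) the score was 16.1 and 23.7 without LPS, and no peak was listed with LPS (adjusted p = 0.00283). The region at its 3′ end (chr10:24912138-24914769) scored 16.8 and 18.9 without LPS and none with it, and both regions in the intron next to the start site were listed only without LPS. A region beyond the 3′ end, 15998 bases from the start site and inside an intron of another transcript (chr10:24911166-24911743), went the other way, from no peak to 16.6 and 16.9, and was called higher (adjusted p = 0.000896 from limma). The region 2866 bases upstream kept a peak in all 4 samples (13.8 and 22.8 without, 39.0 and 30.2 with LPS) and was not called (adjusted p = 0.113). The Arg1 regions were looked up after the gene value was seen. Pparg and Edn1 went the other way. Pparg, a nuclear receptor, scored 37.1 and 47.4 without LPS and 110 and 96.0 with LPS and rose by 1.00 (SE 0.16, adjusted p = 0.00724), and the vasoactive peptide gene Edn1 rose from 8.23 and 12.2 to 61.3 and 47.4 (log2 change 2.14, adjusted p = 0.0881). Mrc1, the mannose receptor, was not called (40.4 and 58.5 without, 29.1 and 49.1 with LPS).

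Macrophage identity genes fell in 8 of 24 tested cases (33.3% against 14.2% of all genes) and rose in 4 (16.7% against 13.8%), with a median log2 change of −0.23. Without centring 7 fell, 6 rose, and the median was 0.06. Mertk, a receptor for dying cells, scored 60.2 and 61.2 without LPS and 26.7 and 35.8 with LPS and fell by 1.26 (SE 0.20, adjusted p = 0.00672 from limma). Csf1r, the M-CSF receptor, scored 70.6 and 76.5 without and 37.9 and 44.9 with LPS and fell by 1.12 (SE 0.17, adjusted p = 0.00619), but over its span the change was 0.14 (adjusted p = 0.755). Fcgr1, the high-affinity IgG receptor, fell from 27.6 and 18.7 to 8.30 and 4.72 and Ctsd, a lysosomal protease, from 18.7 and 28.4 to no peak and 4.18. The groups did not overlap at these genes, as at 1626 of the 1656 genes that fell. Lyz2, Fcer1g, Fcgr2b, and Msr1 fell by 0.74 to 2.81, of which Lyz2 was not called over its span (adjusted p = 0.168) and Msr1 not without centring (adjusted p = 0.225). Emr1, the F4/80 antigen, rose by 0.99 (24.2 and 37.1 to 71.9 and 74.1, SE 0.25, adjusted p = 0.0321), and Itgb2 and Maf rose by 0.77 and 0.61, of which Maf turned to −0.30 over its span and to −0.51 with the highest peak in place of the sum. The calls of Mertk, Csf1r, Fcgr1, Ctsd, and Itgb2 held with any sample left out, and those of Lyz2, Fcer1g, Fcgr2b, Msr1, Emr1, and Maf were lost without 1 or more samples (adjusted p up to 0.129 to 0.239 from limma).

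Pattern recognition and inflammasome genes mostly stayed below the threshold, with 2 of 30 higher (6.67%), 1 lower (3.33%), against 13.8% and 14.2% of all genes, and a median log2 change of 0.02. Without centring 8 were higher, none was lower, and the median was 0.31. Clec4d, a C-type lectin receptor, scored 10.9 and 17.0 without and 44.7 and 33.6 with LPS and rose by 1.22 (SE 0.25, adjusted p = 0.0145 from limma), Nod1 rose by 0.59, and Irak2, a kinase of the TLR pathway, fell by 1.10, a call that was lost without centring (adjusted p = 0.11). Nlrp3, the inflammasome sensor, scored 23.1 and 31.2 without and 37.8 and 30.9 with LPS and was not called (log2 change 0.06, SE 0.24, adjusted p = 0.878). Over the Nlrp3 span the score was 46.5 and 54.1 without LPS and 37.8 and 30.9 with LPS, a change of −0.85 that was called (adjusted p = 0.0194). Of 29 genes of the elongation machinery 4 rose (Tcea1, Ell2, Cdk7, and Ctdp1; 13.8%, as of all genes) and 3 fell (Leo1, Supt16, and Polr2a; 10.3% against 14.2%). Without centring 6 rose and none fell, and the median of 0.33 turned to −0.08 with the higher value for a missing peak. Polr2a, the largest RNAPII subunit, was lower by 0.45 (160 and 186 to 162 and 148, overlapping groups), and Leo1 and Supt16 had adjusted p-values of 0.0794 and 0.0537 from limma. Leo1 turned to 1.26 with intergenic peaks, and of the 7 calls that of Polr2a alone held with any sample left out. Of 18 housekeeping genes 2 rose (11.1%), Rps18 among them, and Tfrc fell (5.56%), without centring 4 rose and 1 fell, and the median of 0.35 lay above that of all genes as well. Rps18 turned to −1.03 by the annotated transcript.

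**Figure D3:**
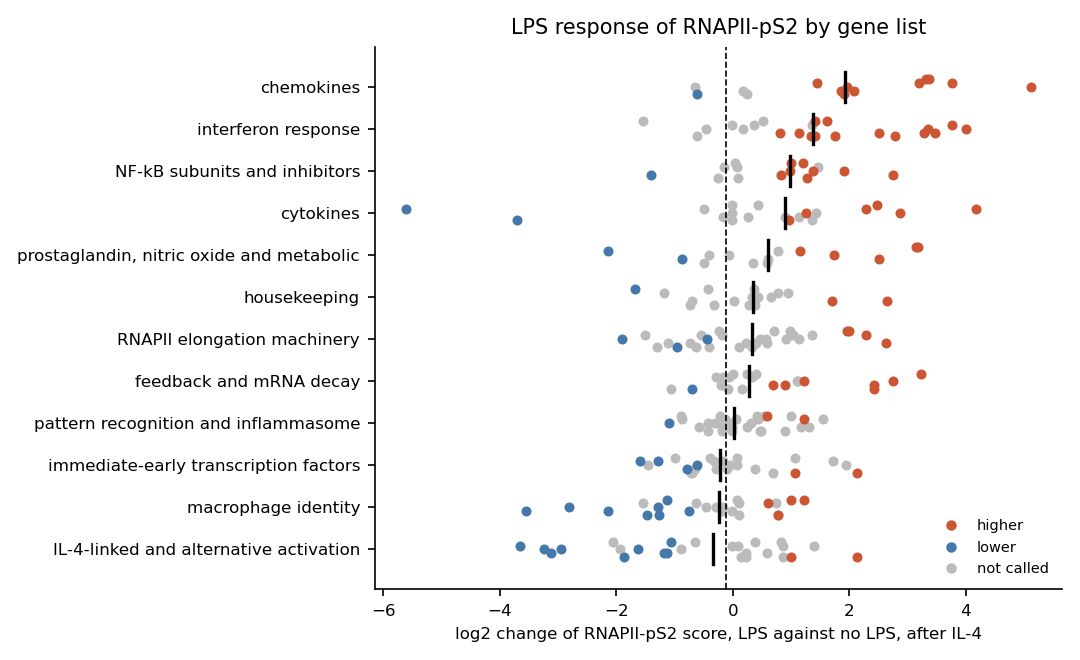
Log2 change of the RNAPII-pS2 score with LPS after IL-4 (horizontal axis) for each tested gene of 12 lists, with the list median as a vertical bar and the median of all genes, −0.12, as a dashed line. Chemokines (median 1.94) and interferon response genes (1.39) lie furthest to the right, and IL-4-linked genes (−0.33) furthest to the left.

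The study sorted the genes that LPS induced at the RNA level by the effect of IL-4 pretreatment, and these lists were used here by name only. Of 476 tested genes in the attenuated list, 109 rose in RNAPII-pS2 (22.9%) and 48 fell (10.1%), with a median log2 change of 0.37. Of 623 in the unaffected list, 199 rose (31.9%) and 31 fell (4.98%), with a median of 0.56, and of 134 in the increased list, 46 rose (34.3%) and 13 fell (9.70%), with a median of 0.57. All 3 medians lay above the −0.12 of all genes. RNA of the study chose these lists, after a longer exposure to LPS than the 1 hr used here, so they are not independent evidence of direction. The log2 change after IL-4 minus that without it had medians of −0.034, 0.226, and 0.07 in the 3 lists, against 0.116 over all genes. Called differences were 18 positive and 25 negative, 38 and 30, and 11 and 7. The study reported that RNAPII-pS2 over gene bodies followed a pattern like that of RNA in these lists. The difference between the lists was not tested.

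Among genes with a peak in all 4 samples the largest rise was at Med13, a subunit of the Mediator kinase module, which scored 6.44 and 4.93 without LPS and 75.5 and 82.5 with LPS, 3.52 on the log2 scale (SE 0.22, adjusted p = 0.00138 from limma). Most of it came from a region in intron 3 (chr11:86344885-86345386) that had no peak without LPS and 51.1 and 57.6 with it. Tmc3, Ssh1 (a cofilin phosphatase), Gca, Ppm1l, Arhgef28, Arhgef3, Adap1, Cyb561, and Stambpl1 followed with rises of 2.80 to 3.24. Over the gene span the rise was 1.26 for Ssh1, 1.25 for Ppm1l, 1.31 for Arhgef3, and 1.61 for Adap1. It was 2.05 to 2.88 for Gca, Tmc3, Stambpl1, and Arhgef28. RNAPII-pS5 was called higher at Tmc3, Gca, Ppm1l, and Arhgef3 and was not called at Ssh1, Arhgef28, Adap1, Cyb561, and Stambpl1. The largest fall was at Pam16, a mitochondrial import factor, which scored 72.7 and 83.8 without LPS and 9.95 and 7.13 with LPS, −3.50 on the log2 scale (SE 0.26, adjusted p = 0.00138). Praf2, Cpeb1, Hes7, Mfsd11, Hist1h1e (a linker histone), Cerk, Efcab4a, Cdc42bpg, and Trim32 followed with changes of −2.75 to −3.27. Over its span Mfsd11 turned to 0.56 and was called higher (adjusted p = 0.0937 from limma). Hes7 and Cdc42bpg, and Cyb561 among the rises, had no span value, since no listed peak overlapped the gene itself. At Cdc42bpg the RNAPII-pS5 change was 1.40 and was not called (adjusted p = 0.132 from limma). In these 20 genes the groups did not overlap, by the rule that chose them, against 34.9% of all genes higher and 20.7% lower without overlap.

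Genes with no peak named after them before LPS were led by Slco3a1, an organic anion transporter, with scores of 66.8 and 71.3 with LPS (adjusted p = 0.00138 from limma). Dnm3os, Cxcl2, Msi2, Sema4f, Rps23, Tcte2, Smyd1, Tbata, and Slc37a1 followed, and Tcte2 fell by 2.12 over its gene span. The span of Smyd1 already scored 30.6 and 29.9 without LPS and scored 99.0 and 87.7 with it. The mirror group, with peaks only without LPS, was led by Bzrap1 (53.7 and 59.5) and by Il1b as described, followed by the histone gene Hist1h4c (49.0 and 57.8), Hs3st1, Slc34a1, Mknk2, Slc35c2, Prrg1, and Pdpk1. Bzrap1 was not called over its span (adjusted p = 0.304 from limma), which still scored 52.7 and 60.0 with LPS. No listed peak overlapped Tbata or Hist1h4c, so their scores come from peaks outside the gene. Across all genes that rose and had a span value, 1289 of 1396 (92.3%) had the same direction over the span, and 19 were called the other way. Among genes that fell, 1322 of 1401 (94.4%) had the same direction and 20 were called the other way, beside 14.5% of genes higher and 14.1% lower in the span fit as a whole.

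Peaks were also merged into 39261 regions irrespective of gene names, and the highest score was compared. Of these, 8812 regions rose (22.4%) and 5965 fell (15.2%), or 37.6% called. Introns and intergenic DNA leaned toward gain, with 24.0% higher and 12.7% lower among 15997 intronic and 26.2% higher and 16.5% lower among 15219 intergenic regions. Regions at transcription termination sites leaned toward loss, with 15.3% higher, 33.6% lower, and a median log2 change of −0.59 against −0.09 for all regions. Regions at 5′ UTRs (9.22% higher, 10.9% lower) and at promoter-TSS sites (11% higher, 14.2% lower) were called least often. By distance, 11.9% of the regions within 1 kb of a start site rose and 13.6% fell, and beyond 100 kb 28.0% rose and 14.4% fell. Peaks over 2 kb wide became more frequent over the same contrast, as given above, and their part in the losses was not tested.

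**Figure D4:**
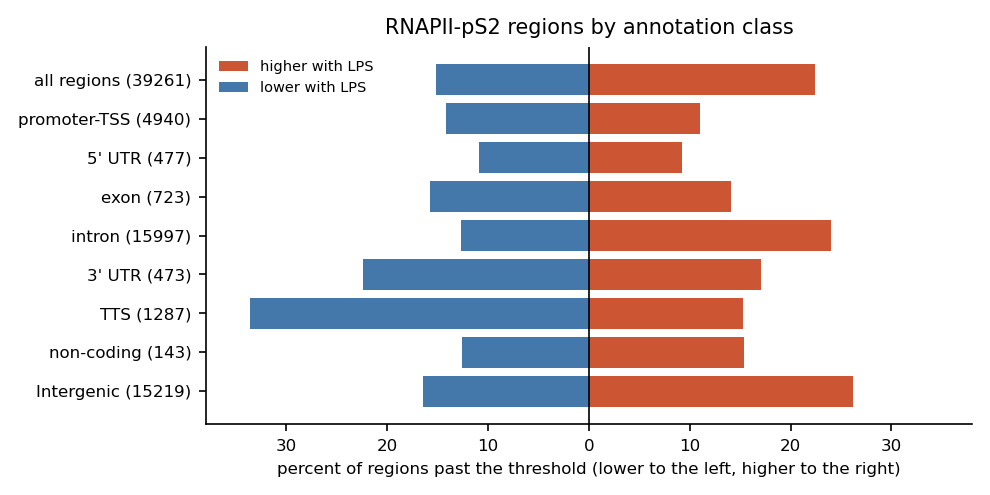
Percent of RNAPII-pS2 regions in each annotation class (number of regions in parentheses) that passed the threshold, higher with LPS to the right and lower to the left. Intergenic regions (26.2% higher) and introns (24.0%) lean right, and TTS regions (33.6% lower) lean left.

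Single regions showed both directions. At Cxcl2 a region over the gene and its 3′ end (chr5:90903912-90907731) had no peak without LPS and scored 58.9 and 59.0 with it, while a region 5147 bases upstream (chr5:90898438-90899074) went from 56.9 and 59.4 to 25.9 and 13.7, a fall of 1.81 on the log2 scale (SE 0.31, adjusted p = 0.00625 from limma). The region named after Mir155, a microRNA induced by inflammatory signals, had no peak without LPS and scored 56.4 and 59.8 with LPS. It lies 3813 bases from the start site of Mir155, in the annotated 3′ UTR of another transcript. The Cxcl10 region went from 5.76 and no peak to 43.6 and 46.0. Among promoters, Slc35b2 (41.8 and 51.2) and Serpinb2, a serpin of activated macrophages (30.2 and 35.6), had peaks with LPS alone. The Slc35b2 region (chr17:45563070-45565147) also overlaps the neighbouring gene Nfkbie (chr17:45555700-45563169), which rose as well. Btg1, an antiproliferative gene, had a promoter peak without LPS alone (29.9 and 45.2). TTS regions named after Hist1h4c and Ucp2, the latter a mitochondrial uncoupling protein, scored 39.4 to 57.8 without LPS and had no peak with it. The region named after Hist1h4c (chr13:23703051-23704582) lies 5345 bases upstream of the start site of that gene, at the annotated end of another transcript.

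RNAPII-pS5 and p65, mapped in separate samples of the same treatments, were set beside these regions. Of the regions that rose in RNAPII-pS2, 16.3% had an RNAPII-pS5 peak in both samples without LPS and 42.6% in both with LPS. Of the regions that fell, 64.4% had an RNAPII-pS5 peak without LPS and 17.8% with LPS, and of those not called 41.8% and 33.3%. p65 covered 15.2% of the regions that rose, 16.7% of those that fell, and 16.8% of those not called without LPS. With LPS it covered 74.8% of the regions that rose, 30.9% of those that fell, and 49.3% of those not called. Among intergenic regions the p65 shares with LPS were 77.7% for those that rose, 32.1% for those that fell, and 55.6% for those not called. The RNAPII-pS5 lists held fewer peaks with LPS (17826 and 18207) than without (21365 and 22149).

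**Figure D5:**
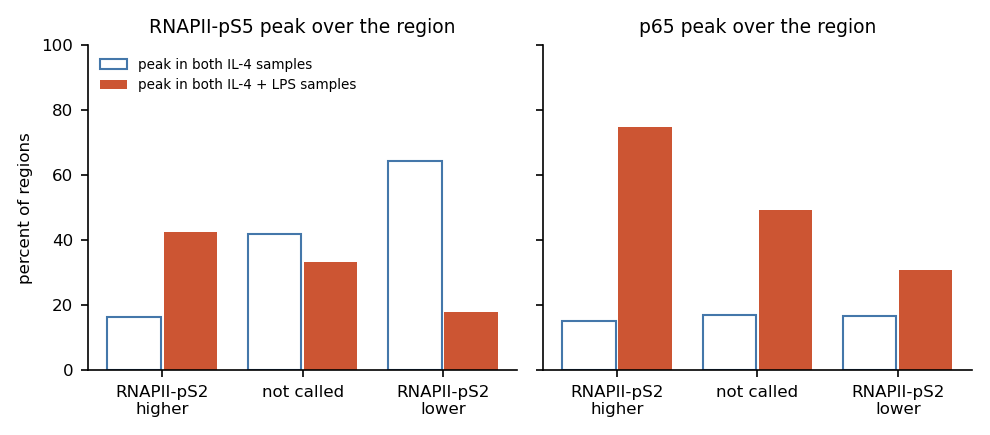
Percent of RNAPII-pS2 regions (vertical axis) with an RNAPII-pS5 peak (left) or a p65 peak (right) in both samples without LPS (open bars) and in both with LPS (filled bars), for regions that rose, were not called, or fell. RNAPII-pS5 drops from 64.4% to 17.8% over regions that fell, and p65 climbs from 15.2% to 74.8% over regions that rose.

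By gene, RNAPII-pS5 was tested for 10610 genes, of which 28.4% were called, 10.2% higher and 18.2% lower. Of 1377 genes that rose in RNAPII-pS2 and had an RNAPII-pS5 value, 539 rose in RNAPII-pS5 as well (39.1%) and 44 fell. Of 1527 that fell, 827 fell in RNAPII-pS5 (54.2%) and 10 rose. At Cxcl2 the RNAPII-pS5 score went from no peak to 72.5 and 69.5, at Rsad2 from no peak to 69.6 and 63.4, and at Mgl2 from 53.5 and 54.9 to no peak. At Med13 RNAPII-pS5 was not called (2.70 and 11.2 without, 9.80 and 7.91 with LPS, adjusted p = 0.595 from limma). A p65 peak named after the gene was present in both LPS samples for 89.0% of the genes that rose, 59.4% of those that fell, and 71.0% of those not called. At Tnfaip3 the p65 score went from 389 and 360 to 1059 and 1141. Its RNAPII-pS2 was called lower by gene name, a call that turned or was lost under other settings as given above. RNAPII-pS5 was not called there (adjusted p = 0.354 from limma).

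The response after IL-4 was compared with that of cells without IL-4 in the same fit, where 33.8% of genes were called, 1742 that rose (15%) and 2197 that fell (18.9%). The pretreated and the other cells have their own controls. Shared by both, 763 genes rose, which is 47.6% of the genes that rose after IL-4 and 43.8% of those that rose without it. Likewise 788 genes fell in both, 47.6% of the one list and 35.9% of the other, while 43 that rose and 33 that fell after IL-4 were called the opposite way without it. The test of the difference itself called 10.2% of genes, 580 with a positive and 607 with a negative difference (4.98% and 5.21%), taken as the log2 change after IL-4 minus that without it. Of the 14 chemokine genes tested, 1 had a called positive difference (Ccl2) and 1 a called negative one (Ccl6, −1.22). Cxcl2, Ccl5, Ccrl2, and Cxcl10 had differences of −0.02 to 0.05 on the log2 scale, none called, with standard errors of 0.45 to 0.67. Cxcl1, Ccl3, Ccl4, Cxcl3, and Ccl7 had differences of 2.31, 0.59, 0.46, 0.16, and −0.55, none called. Ccl2 rose by 2.08 after IL-4 and by 0.67 without it (adjusted p of the difference 0.0549 from limma). Irf7 rose by 1.14 after IL-4 and had a change of −0.58 without it (0.0286). The levels before LPS differed too. Without LPS, Irf7 scored 62.0 and 68.0 without IL-4 and 20.9 and 19.9 after it. Ccl2 scored 32.5 and 31.5 against 16.8 and 12.8, and Fosl2 8.02 and 12.3 against 28.0 and 28.2. With LPS, Irf7 scored 45.4 and 47.1 without IL-4 and 55.9 and 54.4 after it. Ccl2 then scored 58.3 and 50.5 against 75.2 and 76.4, and Fosl2 89.3 and 96.3 against 82.9 and 62.9. Fosl2 rose by 1.07 after IL-4 and by 3.13 without it (adjusted p of the difference 0.0415). These counts rest on few samples: leaving out either 24hIL4_1hLPS replicate or ctrl_1hLPS replicate 2 left 0 genes in both directions, with 2147, 2140, and 2238 genes at an unadjusted limma p under 0.05, and leaving out ctrl_1hLPS replicate 1 left 2 positive and 0 negative, with 2193 at that unadjusted p. Without a 24hIL4_ctrl replicate 278 and 229 differences were positive and 206 and 224 negative, and without a ctrl_ctrl replicate 95 and 115 were positive and 200 and 283 negative. With the replicate number as a block, 259 were positive and 347 negative.

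The largest differences were at Mllt3, which had no peak without LPS after IL-4 and 24.9 and 11.3 with LPS, and no peak with LPS in cells without IL-4. It was called higher after IL-4 and lower without it (10.1 and 13.8 to no peak). Wdr61 and Rap1a were called in the same pair of directions, with no peak without LPS after IL-4 and none with LPS in cells without IL-4. Smpd3 was not called after IL-4 (log2 change 2.02) and fell by 3.35 without it. Draxin and Chrna10 went the other way, from 14.2 and 8.76 and from 14.3 and 4.58 to no peak after IL-4, and from no peak to 18.1 and 6.67 and to 14.9 and 8.58 without it. Adamtsl5 was likewise called lower after IL-4 and higher without it. Med31 was not called after IL-4 and without it went from no peak to 18.6 and 16.8, and its difference of −4.93 turned to 1.93 by the annotated transcript and was −1.03 over its span, neither called (adjusted p = 0.194 and 0.403 from limma). Snord2 is a small nucleolar RNA encoded inside Eif4a2, so peaks over this locus are named after either gene. Neither was called after IL-4, while without IL-4 Snord2 went from 51.7 and 48.6 to no peak and Eif4a2 from no peak to 49.9 and 42.0. With LPS the peaks carried the name Snord2 after IL-4 (42.9 and 38.3) and the name Eif4a2 without IL-4, and their differences of 5.79 and −5.24 have opposite signs. By the annotated transcript the Eif4a2 difference was 0.89, and over its span 0.44, and that of Snord2 was 0.76 and 0.77, and none was called. The differences of Mllt3, Wdr61, Smpd3, Rap1a, and Draxin were called with the same sign both ways and that of Adamtsl5 over its span. Chrna10 had a value by neither way, and no listed peak overlapped the gene itself.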

How the data were processed

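RNAPII-pS2 ChIP-seq peak lists of 8 samples (4 groups of 2 replicates), with RNAPII-pS5 and p65 lists of the same treatments, were taken as deposited. Per the labels and the methods of the study, chromatin was crosslinked with DSG and formaldehyde, and reads were aligned to mm10 with BWA 0.7.10, with SAMtools 0.1.19, MACS2 2.0.10, and HOMER 4.2 listed in the submitters' processing notes. The authors called peaks per sample and deposited a peak score that is read here as a −log10 p- or q-value from its range, since the headers do not name it, and no input control is given in the sources used here. Counts of reads were not analysed, so sequencing depth is not known here and peak number limits what can be seen.

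Gene scores were sums over peaks that were not intergenic, by the gene name in the list (the nearest start site), log2-transformed with 1.39 for a missing peak and centred on the 5244 genes with a peak in all 8 samples. Genes were kept if at least 2 of the 8 lists held a peak. limma 3.58.1 (R 4.3.3) with a mean-dependent prior was fitted over 8 samples with 4 residual degrees of freedom, with Benjamini-Hochberg adjustment and a threshold of 0.1. Regions were peaks merged where they shared at least 1 base, with the highest score. Of the peaks that were not intergenic, 80.1% named the gene of their annotated transcript, so gene values were recomputed by that transcript and by overlap with the RefSeq gene span. Both were chosen after seeing the data, as were the regions looked up around Il1b, Cxcl2, Tnf, Il12b, Nfkbia, and Arg1. Promoters and gene spans are from RefSeq (GRCm38.p6), and motifs were searched on both strands.

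The genes named were the 10 largest rises and falls among called genes with peaks in all 4 samples and no overlap, the 10 highest scores among called genes with no peak in a group, the 5 largest differences of responses each way, and members of the lists, and 3 regions each way per annotation class. Predicted and small-RNA loci were left out of the first 20 and of the genes with no peak in a group. Members and lists were chosen with earlier results of these data known. A few genes and regions that met these rules are not reported here but are included in the counts over lists, classes, and all genes. The fit was also run on simulated data, and the outcome is not given here. Python 3.11.15, pandas 2.3.3, NumPy 2.4.6, SciPy 1.17.1, and matplotlib 3.10.9 were used.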

Additional observations from a re-analysis of the deposited data

Results flagged for a closer look

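The response to LPS after IL-4 minus that without IL-4 passed the test of the difference itself (limma, adjusted p of at most 0.1) for 38 of the genes named, and the values below are log2 differences, which for genes without a peak in a group depend on the value set for a missing peak. It was positive, a higher log2 change after IL-4, at 6.48 for Mllt3, 5.79 for Snord2, 5.59 for Wdr61, 5.38 for Smpd3, 5.37 for Rap1a, 4.65 for Rps23, 3.60 for Slco3a1, 3.26 for Cdk7, 3.20 for Rps18, 2.69 for Arhgef28, 2.64 for Ssh1, 2.63 for Gbp5, 2.21 for Cdh1, 2.10 for Adap1, 1.85 for Il10, 1.74 for Arhgef3, 1.72 for Irf7, 1.56 for Med13, 1.41 for Ccl2, and 1.04 for Mx1. It was negative at −6.19 for Draxin, −5.76 for Chrna10, −5.24 for Eif4a2, −5.00 for Adamtsl5, −4.93 for Med31, −4.65 for Hist1h4c, −2.69 for Slc34a1, −2.32 for Pkm, −2.06 for Fosl2, −1.83 for Slc7a11, −1.82 for Fcgr1, −1.81 for Jun, −1.68 for Rela, −1.57 for Cdc42bpg, −1.22 for Ccl6, −1.21 for Fos, −0.94 for Trib1, and −0.88 for Nfkbia. No gene kept a called difference when either 24hIL4_1hLPS replicate was left out, and with peaks assigned by the annotated transcript the differences of Eif4a2 and Med31 turned to 0.89 and 1.93 and that of Snord2 became 0.76, none called.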

How the results depend on the processing

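The replicate numbers did not pair the samples, since the deviations of same-numbered samples correlated at −0.026 to 0.023, and with the replicate number as a block 1558 genes rose and 1574 fell, while 259 differences of responses were positive and 347 negative. Leaving out 1 sample gave 934 to 1645 genes higher, 1108 to 1604 lower, 5356 to 8883 regions higher, 4338 to 5982 lower, 0 to 278 positive differences, and 0 to 283 negative ones, and 88 of 134 named calls held whichever sample was left out. With a peak required in every sample of both groups, 828 genes rose and 691 fell, and 1805 regions rose and 1321 fell. With the value for a missing peak 4 times as high, 2665 genes fell, 5790 regions rose, and 257 differences were positive. With the upper 50% of peaks 1034 genes fell, 4628 regions rose and 3075 fell, and 1001 differences were positive. With an unadjusted p of at most 0.1, 2566 genes fell, 1934 differences were positive, and 1605 negative, and at an adjusted p of 0.05, 181 were positive and 241 negative. With intergenic peaks 886 were positive and 929 negative, and with all genes that had any peak 382 were positive. The other counts stayed within 1.5 times.

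Of all gene values recomputed for the LPS response, 2783 kept direction and side of the threshold, 282 lost and 7 gained a call, and 53 turned direction. For the difference of responses, 146 were kept, 55 lost the call, and 3 turned. The cause of each turn was not tested beyond the construction of the alternative. With intergenic peaks included, the log2 change was −0.16 for Ccl2, −0.43 for Csf1, −0.06 for Cxcl2, 1.82 for Il12b, 0.47 for Klf6, 1.26 for Leo1, −0.77 for Nlrp3, −0.23 for Pim1, −0.0075 for Rela, 0.73 for Tnfaip3, and 0.13 for Zfp36l1. By the annotated transcript it was 0.23 for Csf1r, −2.28 for Gadd45a, 4.45 for Il1b, −0.56 for Maf, −0.78 for Marcksl1, −3.84 for Mx1, −1.06 for Nfkbib, −1.03 for Rps18, −2.09 for Tcte2, and 0.016 for Tnf, and the difference of responses was 0.89 for Eif4a2 and 1.93 for Med31. Over the gene span it was 0.14 for Csf1r, −0.15 for Ifit3, −0.10 for Il10, 4.42 for Il1b, −0.30 for Maf, 0.56 for Mfsd11, 2.61 for Nfkbia, −0.85 for Nlrp3, 0.61 for Pkm, −0.25 for Rela, −2.12 for Tcte2, and 0.061 for Tnf, and the difference was 0.44 for Eif4a2. With the highest peak it was −0.50 for Ifit3, −0.51 for Maf, 0.22 for Tnf, and 0.20 for Tnfaip3. With the upper 50% of peaks it was −0.31 for Isg20, −0.18 for Nlrp3, −0.31 for Rps18, 0.20 for Tnf, and 0.0081 for Tnfaip3. Without centring it was 0.13 for Nfkbia and 0.28 for Tnf, with quantile normalization −0.14 for Rela and −0.015 for Nlrp3, and with the same number of peaks 0.013 for Tnf. Leaving out 1 sample moved Tnf between −0.045 and 0.042 and Nlrp3 between −0.078 and 0.19, none called. Without read depth or an input, a region without a peak cannot be called free of RNAPII-pS2.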
